A study of Rattus norvegicus with 22 samples.

Results

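Ozone was compared with air in the liver of rats that had undergone a sham operation. The comparison took the 6 libraries titled as sham with ozone and the 5 titled as sham with air, 11 of the 22 libraries of the study, and covered every gene whose normalised count averaged at least 10 in them. The study crossed exposure, air or ozone, with surgery, sham or hepatic vagotomy, the cutting of the vagus nerve branch to the liver, and the vagotomised rats were not used here. All 11 rats shared their handling: they were bought at 10 to 11 weeks of age, had the sham operation at 12 weeks, recovered for 5 to 6 days, and had chow and water freely. The ozone group then breathed ozone at 1.0 ppm for 4 hours and the air group breathed air, on 1 or 2 days, and liver was taken within 2 hours of the end of exposure. Strain and sex are not in the labels, nor is which rats had 1 day of exposure and which had 2, so the groups may hold both. Each library came from 10 to 20 mg of whole liver of 1 rat, with every cell type of the organ in it.

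Inhaled ozone reacts in the fluid that lines the airways, and the liver meets its effects mainly through circulating hormones and mediators. Glucocorticoids from the adrenal cortex act on hepatocytes through the glucocorticoid receptor, and adrenaline and glucagon act through cyclic AMP. Both drive the making of glucose from amino acids, whose nitrogen leaves as urea, whereas insulin drives glycolysis, glycogen storage and the synthesis of fat and cholesterol.

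RNA sequencing gave a normalised read count for each of 14971 genes in each library. A level below is such a normalised count, and a change is a log2 fold change, ozone over air, with its standard error (SE) after ±, on the scale of log2(normalised count + 1), which understates the change of genes with few reads. Genes that rose or fell are those with an adjusted p under 0.05 in limma, over all 12369 genes tested. Levels are not divided by gene length, so they are compared between libraries and not between genes. The recovered reads ranged from 16408931 to 18721031 per air library and from 14737832 to 19469381 per ozone library. The labelled tissue was checked against 10 hepatocyte genes, whose summed level was 2708960 to 2999210 in air and 2388980 to 3310620 in ozone. Ozone library 3 stood apart from the other 10. Its 5.8S ribosomal RNA was at 72.6, against 596 or more in every other library, and it had a score of 58.9 on the principal component with 21.8% of the variance, against 27.1 or less in the others.

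Ozone changed the level of 3134 of the 12369 genes (25.3%). Of these, 1619 rose (13.1%) and 1515 fell (12.2%), and 688 changed at least 2-fold (5.56%), 348 upward and 340 downward. A change of at least 4-fold was measured for 60 genes that rose and 22 that fell. The median change was 0.63 among the genes that rose, -0.69 among those that fell and 0.01 over all genes tested. All 6 ozone libraries lay above all 5 air libraries for 1018 genes (8.23%) and below them for 889 (7.19%), and 981 and 838 of these were also called as risen and fallen. The first principal component, with 38.2% of the variance, held the air libraries between -35.5 and -28.9 and the ozone libraries between 18.7 and 32.3. The split between rises and falls depended on scaling. After rescaling to equal column totals, which moved the median change of all genes to -0.09, 34.9% of the called genes had risen, and after rescaling to equal upper quartiles, which moved it to -0.08, 36.1% had, against 51.7% with the deposited size factors. Small changes are therefore read relative to that shift. Where a rescaling or the loss of ozone library 3 moved a list's rises or falls by more than 1.5 times, the rises and falls in that setting follow as a pair, rises first. The rescaling is the one to equal column totals, or quantile normalisation where that alone of these 2 moved them. The counts of every list below are to be read beside the 13.1% of all genes tested that rose and the 12.2% that fell.

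**Figure D1:**
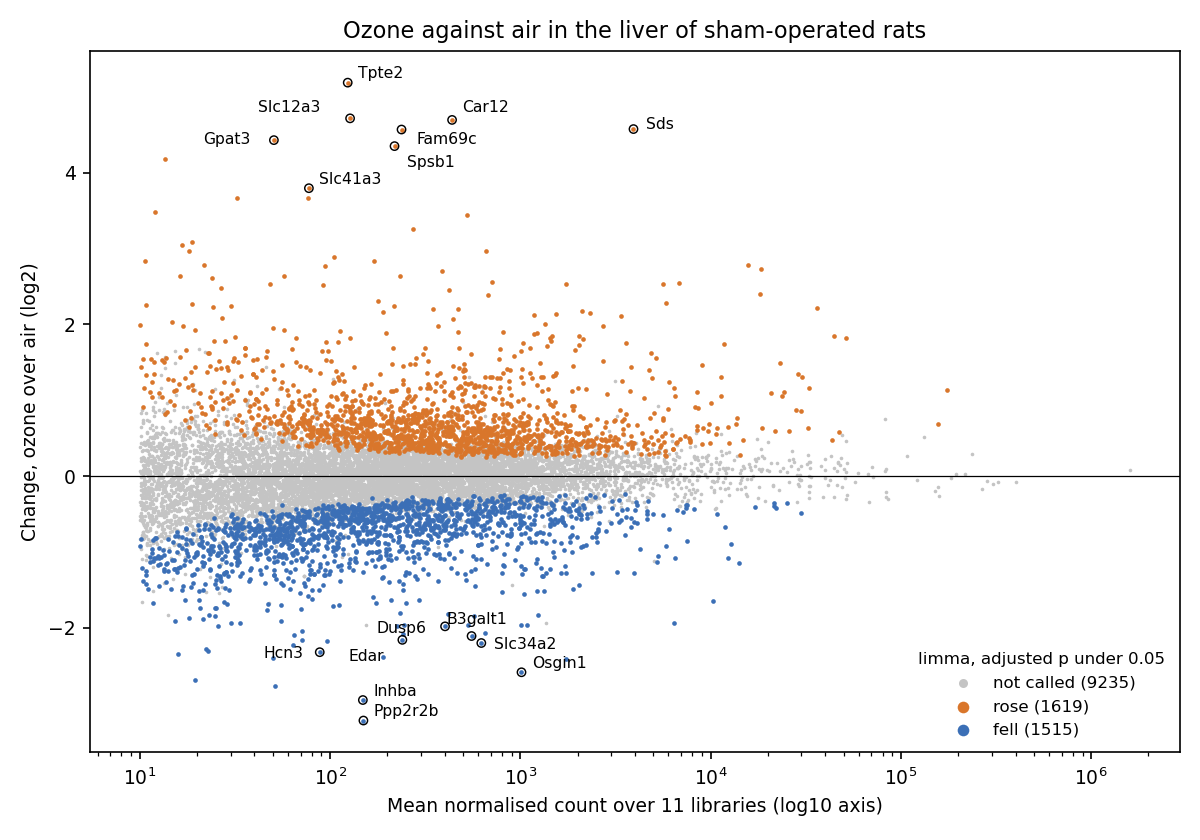
Each point is 1 of the 12369 genes tested, with its mean normalised count over the 11 libraries on a log10 axis (horizontal) and its change, ozone over air, in log2 units (vertical). Genes that rose are orange, genes that fell are blue and the others grey, and names mark 8 of the largest rises and 8 of the largest falls among genes with a mean of at least 50 and no overlap between groups, from Tpte2 at 5.19 to Ppp2r2b at -3.22.

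Of the genes with a mean of at least 50 whose groups did not overlap, Tpte2, Slc12a3 and Car12 rose most. Tpte2, of a family of membrane-bound phosphatases, was at 3.57, 5.95, 8.36, 3.86 and 3.08 in the air libraries and at 92.8 to 368 (median 226) in the ozone libraries. Slc12a3, the sodium chloride cotransporter that kidney tubules are known for, was at 3.57, 8.92, 11.1, 7.72 and 8.21 in air and at 167 to 287 (median 216) in ozone. Car12, a carbonic anhydrase of the cell surface, was at 41.0, 23.8, 21.4, 24.1 and 32.8 in air and at 385 to 1001 (median 820.3) in ozone. In each of these the lowest ozone library lay many times above the highest air library. The choice of these genes already required that the groups not overlap. The changes were 5.19 ± 0.31 for Tpte2 (adjusted p = 1.19e-07), 4.72 ± 0.23 for Slc12a3 (2.85e-08) and 4.70 ± 0.23 for Car12 (2.85e-08). Spsb1 and Spsb4 encode 2 adaptors of the same kind, which bring proteins to a ubiquitin ligase. Spsb1 went from 7.43 to 26.1 to 164 to 633, a change of 4.35 ± 0.38, and Spsb4 from 54.8 to 111 to 677 to 1074, a change of 3.44 ± 0.19. Gpat3, an enzyme of the entry step of triglyceride synthesis, was at 1.86 to 4.46 in air and 64.1 to 122 in ozone (4.43 ± 0.26). Slc41a3, a magnesium transporter, was at 3.08 to 14.9 and 100.3 to 154 (3.80 ± 0.30). Tpte2, Slc12a3, Car12, Spsb1, Gpat3 and Slc41a3 were below 50 in every air library and reached that mean through their ozone libraries. With so few reads in air, the sizes of the rises of Tpte2, Slc12a3 and Gpat3 are uncertain. The magnesium transporter is also 1 of 12 called members among the 30 genes tested of ion transport and carbonic anhydrases, where 7 of 30 rose and 5 fell. Atp1b1, the beta subunit of the sodium pump, belongs there too, with 1221 to 3179.9 in air and 7924 to 14059 in ozone (2.55 ± 0.23).

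Among the 15 largest rises were also carriers that move amino acids and related acids across membranes. Slc25a29, a mitochondrial carrier of basic amino acids, rose from 25.1 to 60.7 to 136 to 349 (2.83 ± 0.27), and Slc16a6, a monocarboxylate transporter, from 13.3 to 30.3 to 115 to 218 (2.89 ± 0.23). Etnppl, which breaks down phosphoethanolamine, was at 5541, 6468, 2265, 4519 and 4347 in air and 19679 to 38015 (median 29917) in ozone, a rise of 6.67-fold. The remaining leaders were Fam69c (4.57 ± 0.26), the torsin gene Tor3a (2.97 ± 0.33), and Ppargc1b, a coactivator of mitochondrial gene expression (2.77 ± 0.29). Its relative Ppargc1a, the coactivator that couples fasting signals to glucose production, was at 65.1, 132, 71.5, 101 and 115 in air and 437 to 863 (median 614) in ozone. That is a change of 2.71 ± 0.20 (adjusted p = 8.61e-07), and the groups did not overlap.

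By the same rule, Ppp2r2b, Inhba and Osgin1 fell most. Ppp2r2b, a B-type regulator of protein phosphatase 2A, was at 353, 286, 256, 283 and 257 in air and at 15.3 to 83.9 (median 28.6) in ozone. Inhba, which encodes the subunit of activin A, was at 178, 292, 380, 304 and 258 in air and at 18.4 to 61.7 (median 37.0) in ozone. Osgin1, a stress gene known as a target of the transcription factor NRF2, was at 2423, 1423, 2436, 1291 and 1574 in air and at 105 to 534 (median 330.4) in ozone. For all 3 genes the highest ozone library was below the lowest air library, as the choice of these genes required. The changes were -3.22 ± 0.33 (adjusted p = 1.41e-05) for Ppp2r2b, -2.95 ± 0.26 (4.15e-06) for Inhba and -2.59 ± 0.34 (1.08e-04) for Osgin1. Ppp2r2d, another subunit of that phosphatase, rose, by 0.99 ± 0.18, with 71.4 to 104 in air and 116 to 261 in ozone. Of the activin subunits that the liver itself makes in quantity, Inhbc changed by 0.27 ± 0.14 (adjusted p = 0.186) and Inhbe by 0.39 ± 0.16 (adjusted p = 0.0939), neither called. Hcn3, a cation channel, fell from 124 to 191 to 8.55 to 76.8 (-2.32 ± 0.47), and Slc34a2, a phosphate transporter, from 603 to 1990.2 to 158 to 326 (-2.20 ± 0.29). Edar, the ectodysplasin receptor, fell by 2.16, B3galt1, a galactosyltransferase, by 2.11, and Rad51d, of homologous recombination, by 1.96 on the log2 scale. Cd274, the ligand PD-L1 that restrains T cells, was at 99.0, 108, 96.6, 61.8 and 84.2 in air and at 7.33 to 46.5 (median 24.7) in ozone (-1.91 ± 0.35).

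**Figure D2:**
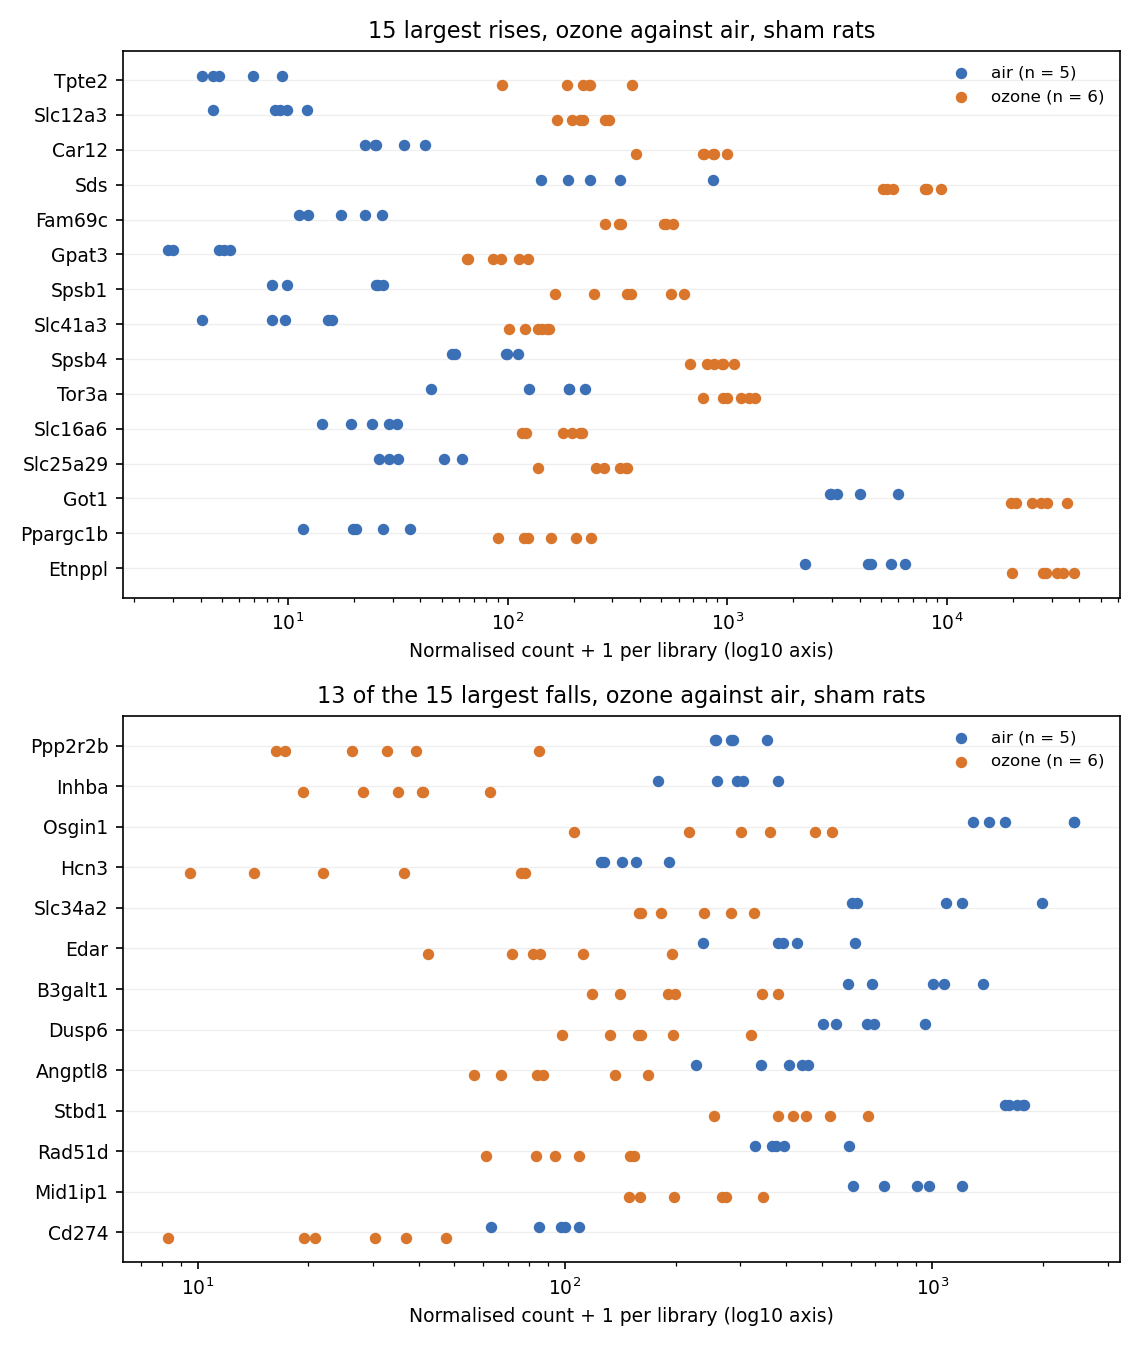
Each row is 1 of the 15 largest rises (upper panel) or 1 of 13 among the 15 largest falls (lower panel), and each point is 1 library, placed by its normalised count plus 1 on a log10 axis, with air in blue and ozone in orange. In every row the 6 ozone points lie on 1 side of the 5 air points, as the choice of these genes required.

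The ozone libraries were not alike in how far they lay from air. Ozone library 4 was the lowest of the 6 in 6 of the 15 largest rises and the highest in 9 of the 15 largest falls, and library 5 was the highest in 8 of the rises and the lowest in 8 of the falls. Over all 1619 rises, library 3 was the lowest in 514 and the highest in 441, and over all 1515 falls it was the lowest in 400 and the highest in 308. The SD of log2 values had a median over genes of 0.23 in air and 0.28 in ozone. The SD in ozone was over 3 times that in air in 6.70% of the genes tested, and the reverse held in 1.10%. Noct, a gene of a daily rhythm that encodes nocturnin, shows such a spread: it was at 10.7, 30.7, 26.9, 84.9 and 29.8 in air and at 61.7 to 1184 (median 305) in ozone, with a change of 3.27 ± 0.67, and the groups overlapped. At the other end, the rise of Dhdds, an enzyme of dolichol synthesis, had the smallest SE among the genes changed at least 2-fold, with 498, 491, 430.2, 455 and 459.8 in air and 1054 to 1347 (median 1229) in ozone (1.40 ± 0.09). Atl2, a GTPase that shapes the endoplasmic reticulum, rose by 1.25 ± 0.10, and Ndufaf4, an assembly factor of respiratory complex I, by 1.42 ± 0.10. Ints3, of the Integrator complex, fell from 382 to 472 to 166 to 216 (-1.08 ± 0.11).

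Genes that break down serine, glycine and threonine rose in part of the list (7 of 19 rose and 0 fell, 7 and 2 under equal column totals, median change 0.29). Sds, the serine dehydratase that turns serine into pyruvate, was at 322, 863, 141, 236 and 187 in air and at 5109.7 to 9341 (median 6795) in ozone. The lowest ozone library was several times the highest air library, and the change was 4.58 ± 0.35 (adjusted p = 1.20e-06). Its paralogue Sdsl rose by 0.64 ± 0.18. Agxt, which moves the amino group of alanine to glyoxylate, rose from 985 to 1454 to 2219 to 3116, by 1.17 ± 0.13. Psat1, which builds serine and so runs against this breakdown, rose as well, from 27.7 to 67.8 to 90.4 to 121 (1.40 ± 0.20).

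Of the aminotransferases and glutamine enzymes, 5 of 18 rose and 0 fell (5 and 2 under equal column totals). Got1, the cytosolic aspartate aminotransferase, was at 3154, 5974, 2933, 4036 and 2962 in air and at 19548 to 35150.2 (median 25496) in ozone, a rise of 6.90-fold (adjusted p = 5.10e-07). Gpt, the alanine aminotransferase of the cytosol, rose by 0.88 ± 0.21, Aspg, an asparaginase, by 0.75 ± 0.16, and Kyat1 by 0.59 ± 0.09. Tat, the tyrosine aminotransferase and a classical glucocorticoid target, rose by 1.35 ± 0.31, but its groups overlapped: it was at 7603, 17299, 11474, 19518 and 22548 in air and at 18376 to 60158 (median 41496) in ozone.

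The urea cycle rose at several steps (5 of 11 rose and 0 fell, 5 and 1 under equal column totals, median 0.51). Slc25a15, the carrier that brings ornithine into mitochondria, was at 11204, 13953, 10209, 13225 and 11225 in air and at 42726 to 74826 (median 58926) in ozone. Arg1, the arginase that releases urea, was at 15781, 18379, 13852, 16999 and 18697 in air and at 30136 to 48654 (median 42325) in ozone. The groups did not overlap for either gene, and the changes were 2.22 ± 0.15 and 1.30 ± 0.14. Ass1 rose by 1.11 ± 0.18 and Asl by 1.16 ± 0.14, the enzymes that join citrulline and aspartate and then split off arginine. Of the enzymes before them, Cps1 changed by 0.51 ± 0.21 (adjusted p = 0.0859) and Otc by 0.26 ± 0.20 (0.366), which are not calls. Cps1 and Otc were chosen after their values were seen.

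Breakdown of aromatic amino acids and histidine moved the same way (8 of 13 rose and 0 fell, 5 and 0 under quantile normalisation, median 0.51). Qdpr, which recycles the cofactor tetrahydrobiopterin, rose by 0.63 ± 0.15, and the histidine genes Hal and Amdhd1 by 0.89 ± 0.12 and 0.95 ± 0.19. Tdo2, the first enzyme of tryptophan breakdown, was at 19298, 24832, 10602, 16248 and 22912 in air and at 50459 to 77983 (median 70704) in ozone, a rise of 3.61-fold. In the list of tryptophan and NAD genes 3 of 16 rose and 3 fell, beside 13.1% and 12.2% of all genes tested. Nnmt, which methylates nicotinamide, rose by 1.30 ± 0.13, while Nmrk1, a kinase that makes NAD from nicotinamide riboside, fell by 1.23 and Nadsyn1, the NAD synthetase, by 0.75 on the log2 scale.

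Genes of methionine and of its methyl group rose in part (8 of 17 rose and 0 fell). Bhmt, which remethylates homocysteine with betaine, was at 28782, 43807, 11709, 19201 and 13612 in air and at 60640 to 92707 (median 72869.7) in ozone. Air library values for Bhmt spread over a wide range, but all stayed below the ozone libraries (1.83 ± 0.28). Mat1a, the liver's S-adenosylmethionine synthetase, rose from 105455 ± 15366 to 230462 ± 28847 (mean ± SD, n = 5 and 6), Gnmt, which uses that methyl donor, by 1.78 ± 0.35, and Ahcy, which clears the product, by 0.87 ± 0.14. Ethe1, which oxidises sulfide, rose by 1.42 ± 0.26, and Cbs by 0.82 ± 0.12. In branched-chain amino acid breakdown 2 of 19 rose and 0 fell (6 and 0 without ozone library 3), a share near the 13.1% of all genes, and edgeR and DESeq2 each called 4 as risen. The genes that rose were Ppm1k, the phosphatase that switches the branched-chain dehydrogenase on (1.85 ± 0.20), and Dbt, a subunit of that complex (1.32 ± 0.12).

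Amino acid transporters split by gene (8 of 21 rose and 2 fell). Slc1a4, a carrier of alanine, serine and cysteine, rose from 83.1 to 161 to 337 to 783 (2.21 ± 0.21). Slc16a10, which carries aromatic amino acids, rose by 1.90 ± 0.20, Slc7a2, a carrier of cationic ones, by 1.47 ± 0.23, and Slc38a4 by 1.17 ± 0.14. Slc38a2, chosen after its values were seen, rose by 1.43 ± 0.41, but its groups overlapped, with 1018 to 2578 in air and 1927 to 11338 in ozone.

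**Figure D3:**
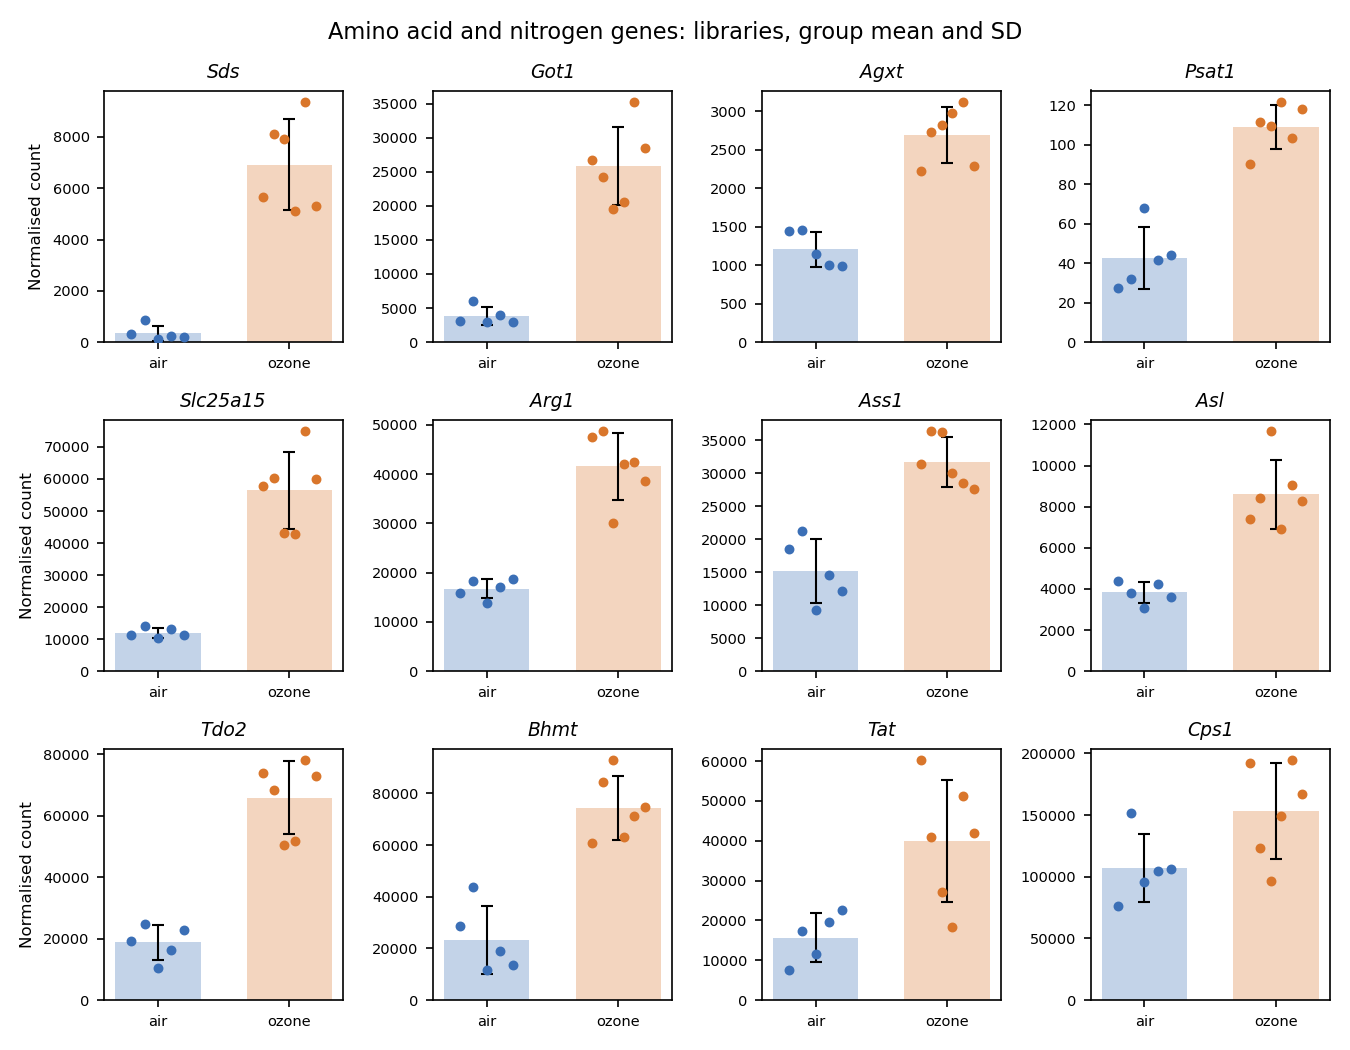
Normalised counts (vertical, linear axes starting at 0) of 12 genes of amino acid and nitrogen metabolism in each of the 5 air and 6 ozone libraries (points), with the group mean (bar) and SD (whisker). Groups do not overlap in any panel but those of Tat and Cps1, and Cps1 was not called.

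Several genes of glucose handling that insulin or its opponents regulate were among the calls. Pklr, the liver pyruvate kinase, fell by 1.22 on the log2 scale (adjusted p = 1.85e-04). G6pc, the phosphatase that releases glucose, was at 10494, 19342, 14059.8, 13260.1 and 15418 in air and at 17286 to 46562 (median 33419) in ozone, and the groups overlapped (1.05 ± 0.25). Pck1, the other textbook gene of glucose production, was not called, with a change of 0.12 ± 0.18 and a 95% interval of ± 0.39 around it (adjusted p = 0.673). In the gluconeogenesis list 5 of 18 rose and 0 fell, with a median of 0.11 against 0.01 over all genes. In glycolysis and glucose uptake 10 of 23 rose and 3 fell (11 and 5 without ozone library 3), and the members that rose include Pfkfb3 (0.72 ± 0.19) and Pfkfb2 (0.64 ± 0.14), which set the level of the activator of phosphofructokinase, Pfkl (0.70 ± 0.13), and the glucose transporter Slc2a1 (1.01 ± 0.19).

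Glycogen genes fell more often than they rose (1 of 18 rose and 6 fell, median -0.27). Stbd1, which tethers glycogen to membranes, was at 1776, 1572, 1702, 1764 and 1612 in air and at 254 to 665 (median 434) in ozone. The air libraries were close together and all ozone libraries were below them (-1.97 ± 0.18). Ppp1r3b, which brings the phosphatase that activates glycogen synthase to glycogen, fell by 0.92, Ugp2, which makes the sugar donor, by 0.61, and Pygl, the phosphorylase that breaks glycogen down, by 0.46 on the log2 scale. Ppp1r3g, another glycogen-targeting subunit, rose from 7.14 to 20.3 to 24.3 to 94.7 (1.83 ± 0.33). Tkfc, an enzyme of fructose breakdown, fell by 1.18.

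In insulin signalling and among targets of FOXO factors, which insulin holds in check, 6 of 23 rose and 2 fell (6 and 4 under equal column totals). Foxo1 was at 328, 598, 516, 801 and 1047 in air and at 1141 to 2285 (median 1841) in ozone (1.49 ± 0.26). The 2 docking proteins of the insulin receptor moved in opposite directions. Irs2 changed by 1.19 ± 0.34 (adjusted p = 0.0187), a call that was lost without air library 4, at an adjusted p of 0.0551, and Irs1 fell by 0.60 on the log2 scale (adjusted p = 0.0166). Klf15, a factor of amino acid breakdown, rose by 0.87 ± 0.16, and Ptpn1, the phosphatase that turns the insulin receptor off, by 0.76 ± 0.14.

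Fatty acid synthesis genes were lower where they were called (0 of 19 rose and 9 fell, median -0.42, against 12.2% of all genes tested that fell). Mid1ip1, which activates acetyl-CoA carboxylase, was at 981, 1203, 909.6, 606 and 739 in air and at 148 to 345 (median 232) in ozone (-1.96 ± 0.22). Acly, which supplies acetyl-CoA, was at 2800.5 to 5253 in air and 997 to 2047 in ozone (-1.28 ± 0.19). Fasn, the fatty acid synthase, chosen after its values were seen, fell by 1.28 on the log2 scale (adjusted p = 0.00505), and its groups overlapped. Scd, the stearoyl-CoA desaturase, was at 11661, 20908, 7237, 12276 and 2847 in air and at 1201 to 4942 (median 2249) in ozone. The groups overlapped for Scd (-1.94 ± 0.43). Fads1 and Fads2, desaturases of polyunsaturated fatty acids, fell by 0.90 and 1.08. Srebf1, which encodes the main driver of the pathway and was chosen after its values were seen, changed by 0.25 ± 0.21 (adjusted p = 0.426). Angptl8, a secreted feeding signal that restrains lipoprotein lipase, was at 226, 442, 406, 456 and 341 in air and at 55.5 to 168 (median 84.6) in ozone (-1.97 ± 0.27).

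Genes of cholesterol synthesis fell in part (1 of 20 rose and 8 fell, 0 and 12 under equal column totals, median -0.38). Hmgcs1, the synthase of the pathway's entry, was at 18939.5, 17914, 16784, 14387 and 13792 in air and at 3803 to 6382 (median 5234) in ozone, a 3.14-fold fall. Msmo1 fell by 1.49, Fdft1 by 0.90, Nsdhl by 0.78 and Lss by 0.73 on the log2 scale. Sqle, the squalene epoxidase, chosen after its values were seen, changed by 0.11 ± 0.26 (adjusted p = 0.78). Srebf2, the factor that drives these genes, fell by 0.87, and Insig1, which holds it back, rose by 1.49 ± 0.35, with overlapping groups. Npc1, a cholesterol exporter of lysosomes, fell by 1.28.

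Genes of triglyceride storage and release rose more often than they fell (10 of 23 rose and 2 fell, median 0.44, against 13.1% of all genes tested that rose). Plin4, a coat protein of lipid droplets, was at 2.68, 0, 0.929, 1.93 and 0 in air and at 8.26 to 29.8 (median 22.8) in ozone (3.48 ± 0.45). With so few reads in air, the size of that rise is uncertain, and Plin4 reached the minimum mean through its ozone libraries. Pnpla2, the lipase that opens triglyceride breakdown, was at 565, 486, 442, 594 and 583 in air and at 1893 to 2977 (median 2240.2) in ozone (2.14 ± 0.14). Lpin1, a phosphatase of triglyceride synthesis and a known target of glucocorticoids and cyclic AMP, rose by 1.45 ± 0.38, and Dgat1, of the last step, by 0.65 ± 0.11. Gpam, the mitochondrial counterpart of Gpat3, fell, from 1702 to 2619 to 715 to 1338 (adjusted p = 4.08e-04). Gpat3 and Gpam therefore moved in opposite directions, and another acyltransferase of the same step in this list was among the rises. In fatty acid oxidation and ketogenesis 9 of 25 rose and 1 fell (6 and 2 under equal column totals, 11 and 2 without ozone library 3). Cpt1a, the gate of mitochondrial oxidation, rose by 0.97 ± 0.14 and Cpt2 by 0.87 ± 0.15. Pex11a, which multiplies peroxisomes, was at 747 to 1278 in air and 3316 to 5083 in ozone (1.98 ± 0.15). Of the bile acid genes 0 of 21 rose and 5 fell, led by Baat, which conjugates bile acids, with 19824, 19319.8, 22920, 18763 and 18649.8 in air and 6669 to 11659 (median 8912) in ozone (-1.14 ± 0.14), and by Amacr (-1.08 ± 0.17). Cyp7a1, the rate-limiting enzyme of bile acid synthesis, chosen after its values were seen, changed by -0.17 ± 0.49 (adjusted p = 0.835).

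**Figure D4:**
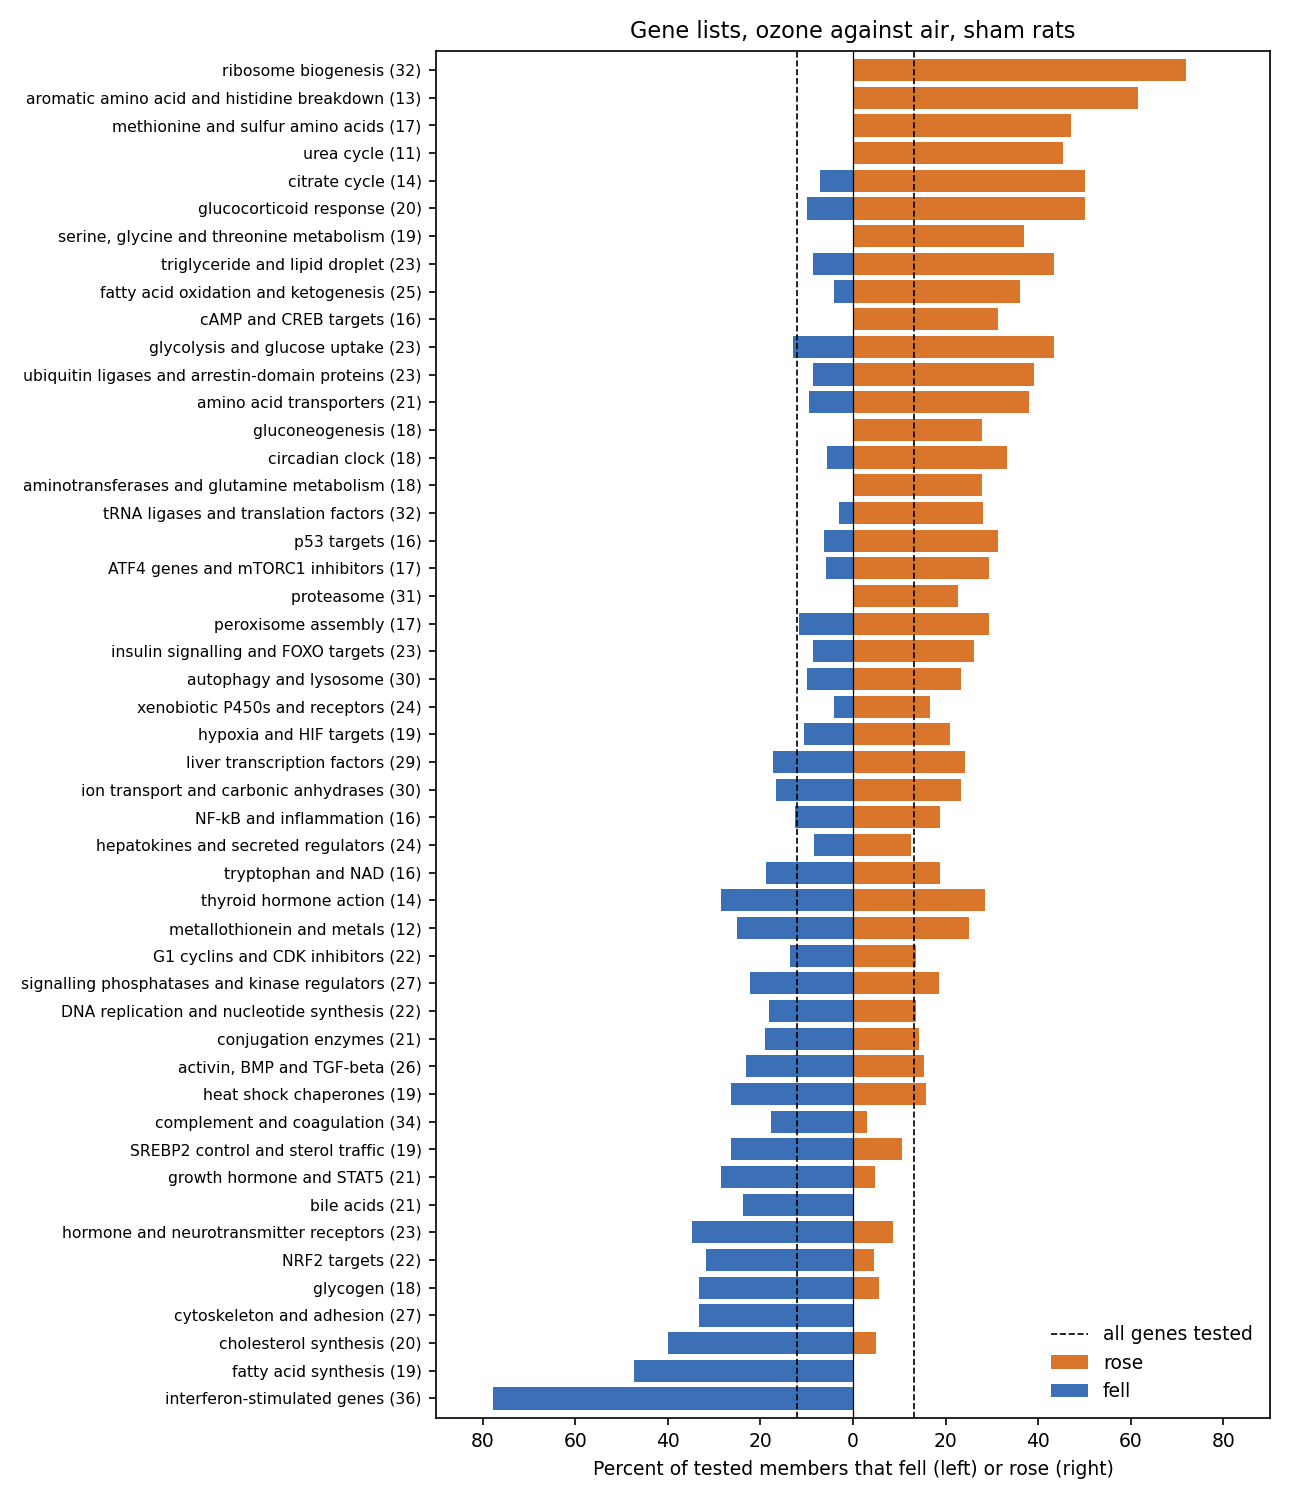
Each bar is 1 of the gene lists with at least 10 members tested and at least 5 called, with the percent of its tested members that rose (orange, to the right) and fell (blue, to the left), and the number of members tested after the name. Dashed lines mark the same percents over all 12369 genes tested, 13.1 and 12.2. Interferon-stimulated genes reach furthest to the left and ribosome biogenesis furthest to the right.

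Glucocorticoid targets were mixed (10 of 20 rose and 2 fell, median 0.61). Fkbp5, a co-chaperone of the receptor, was at 391, 378, 339, 490.3 and 948 in air and at 2176 to 3326 (median 2803) in ozone, and Cdkn1a, an inhibitor of the cell cycle, at 256, 599, 898, 1410 and 1290.1 and 1939.8 to 4915 (median 3515). The groups did not overlap for Fkbp5 and did not overlap for Cdkn1a, with changes of 2.53 ± 0.22 and 2.15 ± 0.37. Per1, which the hormone induces within the clock, rose by 1.15 ± 0.20, Klf9 by 0.77 ± 0.13 and Ddit4 by 0.98 ± 0.22. Tsc22d3, widely used as a marker of glucocorticoid action, was at 1752, 2123, 1415, 2849.9 and 2032 in air and at 1121 to 2441 (median 2023) in ozone, and was not called (-0.16 ± 0.22, adjusted p = 0.633). Gadd45g, in the same list, fell by 1.68. The receptor gene itself, Nr3c1, was at 2359.7, 4976, 3353, 2868 and 2826 in air and at 1716 to 2211 (median 1961) in ozone, a fall of 0.70 on the log2 scale. In the list of hormone and neurotransmitter receptors 2 of 23 rose and 8 fell (1 and 9 under equal column totals, 4 and 7 without ozone library 3), and Lepr, the leptin receptor, fell by 0.51. Prlr, the prolactin receptor, was among those that rose (0.53 ± 0.11). Of the 16 targets of cyclic AMP tested, 5 rose and 0 fell, with Ppargc1a, Per1, Tat, G6pc and Lpin1 as the members that rose, and 3 of these, Per1, Tat and Lpin1, also stand in the glucocorticoid list.

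Feedback genes of STAT5, the mediator of growth hormone, were among the falls. Cish was at 92.8, 22.8, 82.7, 7.72 and 8.21 in air and at 2.02 to 7.88 (median 5.71) in ozone, and Socs2 at 180.2, 407, 1182, 73.3 and 33.9 in air and at 18.9 to 45.3 (median 36.6) in ozone. Both have widely spread air libraries: the groups overlapped for Cish (-2.27 ± 0.62, adjusted p = 0.0149) and overlapped for Socs2 (-2.39 ± 0.66, 0.0165). Onecut1, a liver factor that growth hormone is known to induce, was at 20.3 to 340.1 in air and 9.80 to 21.2 in ozone (-2.22 ± 0.58), and Stat5a fell by 0.93. Igf1, the main endocrine product of this axis, changed by -0.17 ± 0.15 (adjusted p = 0.445). In the whole list 1 of 21 rose and 6 fell (0 and 10 under equal column totals, 0 and 7 without ozone library 3). Clock genes rose in part (6 of 18 rose and 1 fell, 5 and 2 under equal column totals, median 0.54), among them Cry1 (1.04 ± 0.22), Cry2 (1.11 ± 0.15) and the deubiquitinase Usp2 (1.98 ± 0.28). The hour at which each rat was killed is not in the labels, so its part in the clock genes was not tested. Hnf4a, which sets hepatocyte identity, rose by 0.69 ± 0.10. The pregnane X receptor gene Nr1i2, whose product senses foreign compounds, changed by 1.15 ± 0.11 and was called as risen. Por, the electron donor of all microsomal P450 enzymes, was at 1349.8, 1282, 997, 2193 and 2221 in air and at 8019 to 10305 (median 8399) in ozone (2.54 ± 0.19). Of its list of P450 genes and receptors 4 of 24 rose and 1 fell (4 and 4 under equal column totals), beside 13.1% and 12.2% of all genes tested.

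Oxidant defence genes driven by NRF2 fell more often than they rose (1 of 22 rose and 7 fell, 0 and 12 under equal column totals, 3 and 9 without ozone library 3, median -0.27). Nfe2l2, the gene of NRF2 itself, was at 846, 976, 1091, 628 and 642 in air and at 281 to 467 (median 342) in ozone, a fall of 1.22 on the log2 scale. Hmox1, the heme oxygenase, was at 285 to 426 in air and 169 to 291 in ozone (-0.72 ± 0.16), and Nqo1 changed by -0.41 ± 0.15 (adjusted p = 0.0557). Chaperones of the heat shock response were mixed (3 of 19 rose and 5 fell, 1 and 6 under equal column totals), beside 13.1% and 12.2% of all genes tested. Chordc1 fell by 0.84 and Dnaja1 by 0.62. In the endoplasmic reticulum list 2 of 22 rose and 0 fell (2 and 1 under equal column totals, 3 and 1 without ozone library 3). They were Edem1, which sends misfolded proteins to degradation (3736 to 8383 in air and 22268 to 36033 in ozone, 2.40 ± 0.20), and Herpud1 (0.83 ± 0.16). Among genes of ATF4 and inhibitors of the growth kinase mTORC1 5 of 17 rose and 1 fell (5 and 2 under equal column totals, 5 and 3 without ozone library 3): Sesn2 rose by 1.67 ± 0.27 and Chac1 by 2.04 ± 0.44. Atf3, an early stress gene, fell from 32.1 to 300.4 to 16.2 to 62.3 (-2.17 ± 0.56), and Dusp6, a feedback phosphatase of the growth factor kinase ERK, was at 693, 953, 662, 504 and 545 in air and at 96.9 to 319 (median 159) in ozone (-1.98 ± 0.25). Of 19 immediate early genes 0 rose and these 2 fell (0 and 5 under equal column totals, 2 and 2 without ozone library 3). Among known targets of p53 5 of 16 rose and 1 fell (5 and 2 under equal column totals), beside 13.1% and 12.2% of all genes tested. Tp53inp1 rose by 1.35 ± 0.31, and the fall was that of Fas, the death receptor, by 1.49 on the log2 scale.

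Interferon-stimulated genes had the largest share of falls among the gene lists with at least 10 members tested: 28 of the 36 tested fell and 0 rose, with a median change of -0.77 against 0.01 over all genes. Type I interferons act on an element of 2 GAAA repeats, bound by a complex that holds IRF9, and interferon gamma acts on a palindrome TTCNNNGAA, which STAT factors bind. The 4 promoter stretches below hold matches to the first or to both. The sequences below, from RefSeq on build GRCr8, run from 130 bases before the gene's start to the base before it, 5′ to 3′ on the gene's strand, and capitals mark the matches to GAAANNGAAA and TTCNNNGAA on either strand. They are Igtp at chr10:42874917-42875046 (plus strand), Irgm at chr10:33742579-33742708 (minus strand), Parp14 at chr11:78408004-78408133 (plus strand) and Ifi44l at chr2:243328593-243328722 (plus strand). They are shown because the first 3 share 1 arrangement and the last has 2 interferon elements in the stretch. Ifi44l also holds a STAT palindrome within 250 bases of the start, but outside the stretch shown.
Igtp: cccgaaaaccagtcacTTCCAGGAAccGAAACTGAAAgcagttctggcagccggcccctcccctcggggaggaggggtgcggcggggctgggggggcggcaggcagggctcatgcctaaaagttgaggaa
Irgm: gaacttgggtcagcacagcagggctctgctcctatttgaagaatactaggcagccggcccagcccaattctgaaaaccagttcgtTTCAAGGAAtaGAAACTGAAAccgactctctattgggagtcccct
Parp14: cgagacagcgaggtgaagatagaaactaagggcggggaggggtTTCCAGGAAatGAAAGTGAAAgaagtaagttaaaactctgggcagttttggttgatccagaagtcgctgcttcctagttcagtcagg
Ifi44l: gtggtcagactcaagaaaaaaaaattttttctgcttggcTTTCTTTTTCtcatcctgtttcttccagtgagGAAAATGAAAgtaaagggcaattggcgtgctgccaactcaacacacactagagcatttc
In Igtp, Irgm and Parp14 the STAT palindrome begins exactly 11 bases before the interferon element. That spacing was chosen after these promoters were seen, and over all promoters of the genes tested it occurred in these 3 alone, 3 of 8821, and in 7 of the 33469 promoters of the table. In the 250 bases before the start, 18 of the 29 interferon-stimulated genes with a promoter in the table (62.1%) held the interferon element on either strand, against 2.79% of the genes tested and 3.41% of all promoters, and 10 (34.5%) held the STAT palindrome, against 5.97% and 7.67%. The element was about as frequent in members that fell, 14 of 22, as in those not called, 4 of 7. A match is a description of letters and shows no binding.

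Members led by these genes were lower in the ozone libraries one by one. Irgm, an interferon-inducible GTPase, was at 681, 1321, 941, 874 and 859 in air and at 183 to 413 (median 252) in ozone. Igtp, of the same family, was at 1559, 2564, 1902, 1666 and 1702 in air and at 501 to 893 (median 609.8) in ozone. Ifi47, another such GTPase, was at 238, 571, 433, 302 and 392 in air and at 90.4 to 127 (median 106) in ozone. The groups did not overlap for Irgm, did not overlap for Igtp and did not overlap for Ifi47, and the changes were -1.84 ± 0.20, -1.52 ± 0.18 and -1.80 ± 0.19. Parp14, an ADP-ribosyltransferase of antiviral defence, was at 1421 to 2336 in air and 638 to 1073 in ozone (-1.32 ± 0.15), and Ifi44l at 101 to 203 and 52.3 to 70.9 (-1.24 ± 0.17). Cxcl10, an interferon-induced chemokine, fell from 26.7 to 74.4 to 4.89 to 20.7 (-1.74 ± 0.36). Over all 36 members tested, called or not, the median log2 difference from the air mean was -0.30, 0.40, -0.06, -0.14 and 0.10 in the air libraries and -1.16, -0.93, -0.67, -0.52, -0.85 and -0.72 in the ozone libraries. Between 29 and 36 of the 36 were below their air mean in each ozone library, and 33, 3, 21, 32 and 11 were in the air libraries. Without ozone library 3 the list had 29 falls and 0 rises. In whole liver, fewer cells of a type and less RNA per cell cannot be told apart, and the markers of immune cells were therefore set beside these genes. Of 13 Kupffer cell and macrophage markers 0 rose and 2 fell (0 and 4 without ozone library 3), Cd5l by 0.52 and Adgre1 by 0.41 on the log2 scale, with a summed level of 8442 to 10493 in air and 7297 to 10726 in ozone, and Clec4f, which defines Kupffer cells and was chosen after its values were seen, changed by -0.11 ± 0.13 (adjusted p = 0.576). Of 4 T and NK cell markers tested limma, edgeR and DESeq2 called 0, and 1 had an unadjusted p under 0.05 in limma, which called 1 as fallen without ozone library 3, with sums of 286 to 334 in air and 186 to 440.3 in ozone. Both neutrophil markers tested had lower means in ozone, with a median change of -0.90 and sums of 42.5 to 78.0 in air and 21.8 to 42.5 in ozone. Csf3r, a receptor of that lineage, fell in limma (-0.94 ± 0.29). The calls of Adgre1 and Csf3r were lost without each of 9 and 6 of the 11 libraries, at adjusted p of up to 0.0947 and 0.0694. Both markers were called as fallen by edgeR and DESeq2, and by limma under equal column totals and without ozone library 3. Of 12 markers of sinusoidal endothelium 0 rose and 1 fell (0 and 5 under equal column totals, 0 and 3 without ozone library 3), with sums of 7489 to 8635 and 5887 to 8899. The sums cover every listed marker with a measured level, tested or not: 14 for Kupffer cells and macrophages, 9 for T and NK cells and 5 for neutrophils. The part of these cell types in the interferon genes was not tested.

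**Figure D5:**
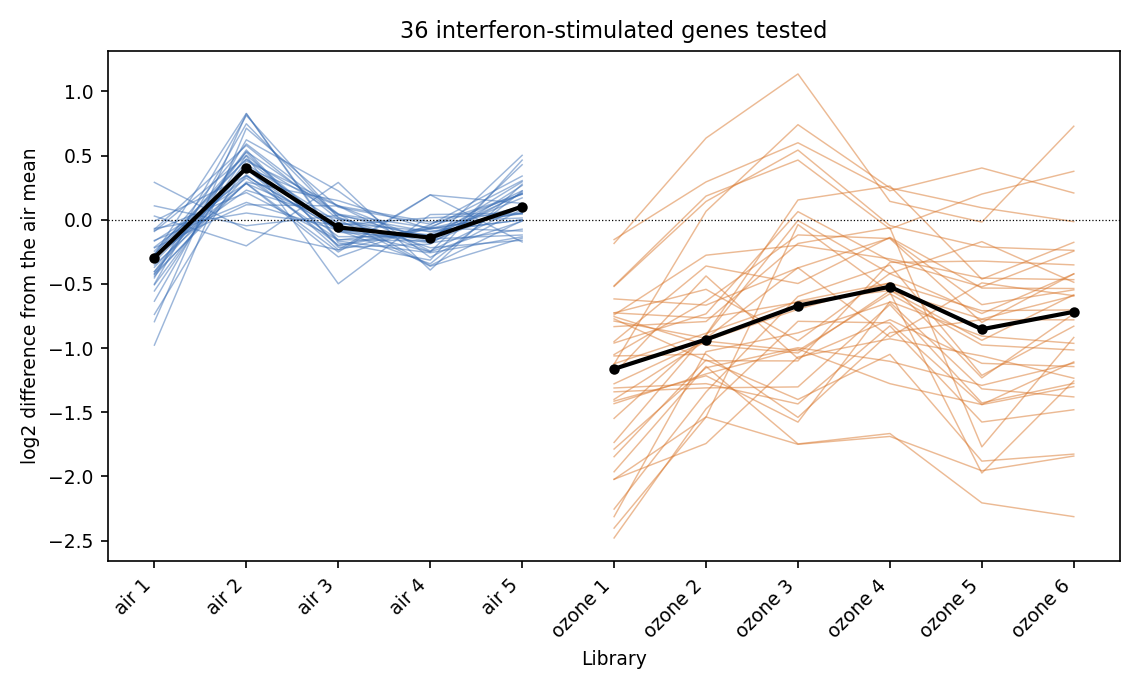
Each line is 1 of the 36 interferon-stimulated genes tested, called or not, drawn as the log2 difference of every library from the mean of the 5 air libraries of that gene, with the median over the 36 genes as a black line. All 6 ozone libraries have a median below those of the 5 air libraries.

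Of the acute phase proteins, which the liver makes in inflammation, 1 of 27 rose and 0 fell (0 and 4 under equal column totals, 2 and 1 without ozone library 3), and Crp changed by -0.05 ± 0.14 with a 95% interval of -0.35 to 0.25 (adjusted p = 0.825). In complement and coagulation 1 of 34 rose and 6 fell (0 and 8 under equal column totals), beside 13.1% and 12.2% of all genes tested. The falls include C9, of the membrane attack complex (29771 to 50012 in air and 21287 to 28468 in ozone, -0.48 ± 0.14), and C6 (-0.53 ± 0.10). MHC class II genes had 0 calls of 9 in limma and a median of -0.28, with 6 of them under an unadjusted p of 0.05, 0 called by edgeR and 2 by DESeq2, both as falls. In limma 3 of the 9 fell under equal column totals and 5 without ozone library 3. Of MHC class I and immunoproteasome genes 0 of 20 rose and 3 fell (0 and 7 without ozone library 3). Among genes of NF-kB and inflammation 3 of 16 rose and 2 fell, beside 13.1% and 12.2% of all genes tested. Nfkbib, an inhibitor of the factor, rose by 1.06 ± 0.23.

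Ribosome biogenesis had the largest share of rises among the gene lists with at least 10 members tested, with 23 of 32 genes risen, 0 fallen and a median change of 0.54. Under equal column totals 15 rose and 0 fell, with a median of 0.43, and without ozone library 3 24 rose. Wdr43, a component of the small subunit processome, was at 323, 399, 398, 358 and 311 in air and at 670.5 to 1165 (median 876) in ozone (1.31 ± 0.14). Gnl3, a nucleolar GTPase, was at 328, 395, 445, 399.5 and 391 in air and at 823 to 1238 (median 923) in ozone (1.31 ± 0.13). Rrp12 rose by 1.08 ± 0.15, Gnl2 by 0.87 ± 0.11 and Nolc1 by 0.81 ± 0.11. Of the cytosolic ribosomal proteins 2 of 26 rose and 0 fell, and the median change was 0.14. The summed level of 61 small nucleolar RNAs, the guides of ribosomal RNA modification, was 1233, 1106, 924, 1744 and 1573 in the air libraries and 98.0 to 6391 (median 4964) in the ozone libraries. The lowest of these was ozone library 3, and the other 5 ozone libraries lay above all air libraries, at 2669 or more. Over all 11 libraries the means differed by 2794 (exact permutation test, two-sided, p = 0.0368, and 0.201 after adjustment over 6 library measures). Without ozone library 3 the same test gave an unadjusted p of 0.00794. The library left out is the one with the lowest sum, and without it the groups do not overlap. That p is therefore no independent test of the difference. The nucleolar RNAs and 5.8S move with this library, and their part in the gene changes was not tested beyond leaving it out.

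Of tRNA ligases and translation factors 9 of 32 rose and 1 fell (5 and 1 under quantile normalisation), among them Eif4a1, the helicase of initiation (0.59 ± 0.11). In the citrate cycle 7 of 14 rose and 1 fell (3 and 1 under equal column totals), with Idh3a at 272 to 341 in air and 460.5 to 639 in ozone (0.85 ± 0.11). Respiratory chain genes of the nucleus had 4 rises of 34, and 0 under equal column totals. Mt-co2, encoded in mitochondria, was at 115141, 105260, 108472, 121626 and 114591 in air and at 84450.5 to 261891 (median 196087) in ozone, and its call (adjusted p = 0.045) was lost without each of 10 of the 11 libraries, at up to 0.0927, and under equal column totals, equal upper quartiles and quantile normalisation. In the proteasome list 7 of 31 rose and 0 fell, led by Psmb4 (0.74 ± 0.11) and Psmc5 (0.71 ± 0.11). Of autophagy and lysosome genes 7 of 30 rose and 3 fell (3 and 4 under equal column totals): Map1lc3b, the LC3 protein of autophagosomes, was at 598, 427, 439, 609.9 and 594 in air and at 1077 to 1726 (median 1423) in ozone (1.42 ± 0.14), and Sqstm1, the receptor p62 that brings cargo to it, fell by 0.48.

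Genes of the cell cycle were called in both directions. Among G1 cyclins and CDK inhibitors 3 of 22 rose and 3 fell (5 and 3 without ozone library 3). Those shares are near the 13.1% and 12.2% of all genes tested. Ccne1, cyclin E1, was at 8.03, 5.95, 1.86, 5.79 and 7.18 in air and at 24.4 to 51.6 (median 39.2) in ozone (2.62 ± 0.32). It reached the minimum mean of 10 through its ozone libraries. The D cyclins Ccnd1 and Ccnd2 fell by 0.84 and 1.06, and Rb1, the retinoblastoma gene, by 1.08 on the log2 scale. Cdt1, which licenses replication origins, rose by 2.23 ± 0.36, while Mcm4, a subunit of the replicative helicase, fell by 0.69 and Mcm7, another subunit of it, rose by 0.77 ± 0.16. In DNA replication 3 of 22 rose and 4 fell (5 and 4 without ozone library 3), beside 13.1% and 12.2% of all genes tested. Only 10 of the 22 mitosis genes had enough reads to be tested, with 1 rise and 3 falls (1 and 5 under equal column totals). Aurka rose (0.95 ± 0.15), and the falls include Tpx2 (-1.42 ± 0.29) and Bub1 (-1.21 ± 0.36). Tubulins, the proteins of microtubules, fell together with other cytoskeletal and adhesion genes (0 of 27 rose and 9 fell, 1 and 11 without ozone library 3), with changes of -0.86 ± 0.15 for Tuba1b, -0.64 ± 0.14 for Tubb4b and -0.55 ± 0.11 for Tubb5. In the list of activin, BMP and TGF-beta genes 4 of 26 rose and 6 fell, beside 13.1% and 12.2% of all genes tested. Id2 and Id4 fell by 0.88 and 1.25, and their relative Id1 rose by 0.90 ± 0.21. Agt, the angiotensin precursor that hepatocytes secrete, rose from 10876 to 15746 to 20644 to 32706 (1.10 ± 0.14).

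Hepatocyte markers were counted by zone of the liver lobule, and the difference between zones was not tested. Among 12 markers of periportal hepatocytes 7 rose and 0 fell, with a median of 0.54 and summed levels of 197621 to 292305 in air and 270974 to 428816 in ozone. Of these 7, 6 stand in the amino acid lists too, so the 2 counts are not independent. Among 13 pericentral markers limma, edgeR and DESeq2 called 0 and 3 had an unadjusted p under 0.05, 1 fell in limma under equal column totals, the median was -0.08, and Glul, the glutamine synthetase of the cells around the central vein, changed by 0.26 ± 0.11 (adjusted p = 0.095). Of 10 markers shared by all hepatocytes only Hnf4a was called, and Alb, chosen after its values were seen, changed by 0.09 ± 0.18 (adjusted p = 0.759). Stellate cell and fibroblast markers had 1 rise and 3 falls of 11, with Dcn, a matrix proteoglycan, up by 1.27 ± 0.30 and Pdgfrb, a defining receptor of stellate cells, down by 0.87 on the log2 scale. Cholangiocyte markers had 0 calls of 8 and erythroid markers 0 of 4 in limma, edgeR and DESeq2, and 0 of either list had an unadjusted p under 0.05. Of nerve markers 1 of 3 tested rose, Mbp (1.06 ± 0.25).

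Summed over normalised counts, the rises outweighed the falls. Over the called genes the mean normalised counts gained 1324329 in genes that rose and dropped by 412417 in genes that fell, and the mean library total was 17730657 in ozone and 16477500 in air. Those totals rest on the deposited size factors: the recovered reads averaged 16555615 in ozone and 17182943 in air. The sums were not repeated under equal column totals, where 34.9% of the called genes had risen. The 8 largest gains, those of Mat1a, Mt-co2, Bhmt, Tdo2, Slc25a15, Etnppl, Arg1 and Tat, made up 31.9% of the gain. The 8 largest losses, among them those of Hmgcs1, Baat, C9, Fads2, Scd, Fads1 and Afm, made up 17.2% of the loss. Such sums weigh long and abundant transcripts most.

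A pair of genes outside the lists moved strongly and were chosen after their values were seen. Rbm3, a cold-inducible RNA-binding protein, was at 278, 239.9, 176, 142 and 147 in air and at 896 to 1473 (median 1096) in ozone (2.57 ± 0.18, adjusted p = 5.10e-07). Upp2, a uridine phosphorylase of the liver, was at 700.3, 926, 193, 969.9 and 1129 in air and at 2102 to 4887 (median 2908) in ozone (2.18 ± 0.38). The groups did not overlap for either gene.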

How the data were processed

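Liver RNA was sequenced from 22 rats, and 11 libraries, 5 of sham rats in air and 6 in ozone, entered the comparison. Libraries were prepared with a PrepX kit, per the labels' protocols. STAR, Partek, DESeq and DESeq2 and the genome build rn6 are named, without versions, in the submitters' processing notes. The authors deposited a table of normalised counts, a signal in which each library's read counts had been divided by a size factor; the counting rule, its use of strand and the annotation are not given in the sources used here, so genes that overlap or share reads with a copy are uncertain. All deposited values (100%) came out as whole multiples of 1 step per library within 0.001, which returned the reads. Changes were fitted with limma 3.58.1 (R 4.3.3) on log2(normalised count + 1), with a trend of the variance on the mean, for genes with a mean of at least 10, and p-values were two-sided and adjusted by the Benjamini-Hochberg method over all genes tested. With edgeR 4.0.16 (quasi-likelihood, TMM) 3169 genes were called on the recovered reads, and with DESeq2 1.42.0 3527. Other settings were pseudocounts of 0.5 and 5, no minimum and a minimum of 50, other scalings, a replicate block, weights, and each library left out. On data simulated with this comparison's group sizes, 12356 genes were tested. Of genes changed 2-fold 88% were called, of those changed 1.5-fold 34% and of unchanged genes 0.0822%. In the simulation 12159 genes were unchanged, whereas 25.3% of genes were called in the data. The adjustment is stricter when fewer genes change, so these shares need not hold for the data. Replicates are separate libraries; the labels number them without naming cages or exposure days, so p-values measure the spread between these libraries.

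Named genes came from the 15 largest rises and 15 largest falls with a mean of at least 50 and no overlap between groups, the 5 smallest p of each list, the 8 largest gains and losses in counts, the 6 smallest and 6 largest SE, and fixed families. A gene from outside is marked as chosen after its values were seen. Some genes are not reported here. Members and lists were chosen with earlier results of these data known. Lists were counted with no set test. Promoters were matched by symbol to RefSeq tables of build GRCr8, and the files' own build was not used for sequence. Figures were drawn with matplotlib 3.10.9.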

Additional observations from a re-analysis of the deposited data

Results flagged for a closer look

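The highest and lowest library of each group were checked for a wide gap to the rest (Dixon's ratio at the 95% level) in the 198 genes named and 6 library measures, 408 groups in all. A gap was found in 23 groups (5.64%), and chance alone gives about 1 in 20, so the number by itself marks nothing. Each value below is that of the library apart, in normalised counts, followed by its nearest neighbour in the same group.

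Among air libraries, library 2 stood above the others in 3 metabolic genes. Sds, the serine dehydratase, was at 863 (next 322), Ppm1k, the phosphatase of branched-chain breakdown, at 1301 (next 776), and Acly, of fatty acid synthesis, at 5253 (next 3448). Air library 5 was highest for Fkbp5, the glucocorticoid target, at 948 (next 490.3), for C9 of complement at 50012 (next 33826) and for Id1 at 35.9 (next 26.8). Air library 4 was highest for Noct at 84.9 (next 30.7) and for Gadd45g at 493.2 (next 268). Air library 3 was highest for Baat, which conjugates bile acids, at 22920 (next 19824), and lowest for Klf15, at 293 (next 442). Air library 1 was highest for Rad51d at 593 (next 394).

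Among ozone libraries, library 3, the one low in 5.8S ribosomal RNA, was apart in 6 genes. It was highest for Gnmt at 4095 (next 2249.8), for Hmox1 at 291 (next 209), for Mcm7 at 306 (next 202), for Nfkbib at 295 (next 169) and for Rrp12 of ribosome biogenesis at 210.1 (next 157), and lowest for Ugp2 at 1893 (next 2450.2). Ozone library 1 was lowest for Car12 at 385 (next 771) and highest for Cry1 at 231 (next 139). Ozone library 2 was highest for C6 at 3179 (next 2965) and for Ppp2r2b at 83.9 (next 38.4). Ozone library 4 was highest for Id2 at 1135 (next 697) and for Parp14 at 1073 (next 785).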

How the results depend on the processing

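The number of genes called, 3134, lay between 2479 (without air library 4) and 3786 (without ozone library 3) when 1 library was left out, and between 2747 and 4573 over the other settings with all 11 libraries, the highest with array weights. Every call shared with the reported fit had the same direction under each setting run. The changes of Alb, Crp, Cyp7a1, Pck1 and Sqle, none of them called, crossed 0 under at least 1 setting. Genes changed at least 2-fold numbered 458 with a minimum mean of 50, where fewer genes were tested, against 688. Rises numbered 1077 under equal column totals, against 1619. That rescaling moved the median change of all genes from 0.01 to -0.09. Why the normalised totals differ between the groups was not tested. Same-numbered air and ozone libraries deviated with correlations of -0.234, -0.0706, -0.0737, -0.0437 and 0.179. Only air library 5 correlated best with its own number. The labels do not say whether the numbers pair the rats, and such correlations cannot decide it. A replicate block on the 10 libraries numbered 1 to 5 gave 2027 calls, 1044 rises and 983 falls, against 2744 calls in the same libraries without it. Of the called genes named, Irs1 (adjusted p = 0.0593), Ccnd1 (0.0506), Afm (0.0866), Mt-co2 (0.0844) and Adgre1 (0.0887) were not called with the block, and Mt-co2 and Adgre1 were not called in those libraries without it either. At this depth a list member under the minimum mean of 10 has no value. On simulated data, where far fewer genes changed than were called here, 34% of 1.5-fold changes were called. That share need not hold for these data, and a gene not called may still differ by that much.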
